A study of Mus musculus with 33 samples.

Results

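The integrin and laminin chain genes comprised 38 of the 37620 genes in the count tables of a mouse study of reprogramming by Sox2, Klf4 and Myc (SKM). They were taken by gene symbol, as every gene named for an integrin alpha or beta chain or a laminin alpha, beta or gamma chain. No measured value entered this rule, although the group was chosen with earlier results of these data known. They were 27 integrin genes (18 alpha and 9 beta chains) and 11 laminin genes. Of 42 symbols that matched, 4 were left out because they name integrin-binding or integrin-like proteins (Itgb1bp1, Itgb1bp2, Itgb3bp and Itgbl1).

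RNA-seq followed 2 kinds of cells that carried the SKM factors under doxycycline control, mouse embryonic fibroblasts (MEFs) and neural progenitor cells (NPCs), on days 2, 4, 8 and 12 of induction in mouse ES medium. Their references were the same MEFs and NPCs on day 0, with MEFs grown in DMEM with serum. Each of these 10 groups had 2 libraries, and R1 ESC and SKM iPSC, 1 library each, served as pluripotent lines and were treated as 1 group. The MEF libraries of days 4, 8 and 12 and the NPC libraries of days 8 and 12 came from EGFP-positive cells. Between day 0 and those days, day and sorting thus change together and cannot be told apart. Comparing the origins on day 4 sets sorted MEF cells beside NPC cells that are not labelled as sorted. For MEF cells the medium also changes between day 0 and the induced days, so induction and medium cannot be told apart either. The labels name neither the clone nor the animals behind the cells and do not say that replicates were separate cultures, so p-values measure the spread between these libraries, which may be technical. NPC days 2 and 4 follow the sample titles, although another label gives days 0 and 2. In the column headings, 1 day 4 NPC library is named for a feeder layer (replicate 1) and the other for none (replicate 2).

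An integrin is a pair of 1 alpha and 1 beta chain that spans the cell membrane, binds matrix or another cell outside and connects to the cytoskeleton inside. A laminin is a trimer of 1 alpha, 1 beta and 1 gamma chain and is the main adhesive protein of basement membranes. The alpha chain sets most of the receptor preference: the laminins of the early embryo are built on the alpha1 and alpha5 chains, those of muscle and of blood vessels on alpha2 and alpha4. Integrin alpha6 beta4 is the laminin receptor of hemidesmosomes, which attach epithelial cells to the basement membrane and anchor keratin filaments inside the cell, whereas beta1 pairs with many alpha chains in focal adhesions.

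The 22 libraries held 15902838 to 20102260 gene counts. Levels are given as CPM, counts per library total after scaling, which do not correct for gene length, so levels were compared between libraries and not between genes. Day 0 MEFs carried fibroblast markers at a summed 26910.0 and 14771 CPM, and day 0 NPCs carried neural progenitor markers at a summed 2912 and 2916 CPM. The pluripotent markers summed to 488 and 509.7 CPM in day 12 MEF cells and to 709.9 and 596 CPM in day 12 NPC cells, against 5983 and 4182 CPM in the lines. The 2 day 0 MEF libraries differed more from each other than the pair of any other MEF or NPC group, with a standard deviation of the log2 replicate difference over genes of 0.749, against 0.272 to 0.689 in the other groups. Results that this pair decides are given with each library left out.

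Of the 38 genes, 32 were tested among MEF libraries and 33 among NPC libraries. Itgad, Itgax and Itgb2l, chains of leukocyte integrins, stayed under the filter of 1 CPM in at least 2 libraries in every fit, and Itgb2l had no count in any library. In MEF cells, 11 members were higher and 14 lower on day 12 than on day 0, where 51.8% of all genes tested were called in either direction (26.9% higher, 24.9% lower). In NPC cells, 8 were higher and 11 lower on day 12, where 48.5% of all genes were called (24.7% higher, 23.9% lower). The median log2 change of the members tested was -1.03 in MEF cells, against 0.104 over all genes, and -0.169 in NPC cells, against 0.133 over all genes. A gene is called here at an adjusted p under 0.05, and all comparisons with day 0 of an origin share its day 0 libraries.

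The earlier days were counted in the same way. On day 2, 6 members were higher and 17 lower in MEF cells (45% of all genes called, 20.9% higher and 24.1% lower), and 6 higher and 10 lower in NPC cells (35.6%, 18.2% higher and 17.3% lower). The 16 NPC calls of day 2 were 6 without NPC day 2 replicate 1 and 7 without NPC day 0 replicate 2. On day 4 the counts were 6 higher and 14 lower in MEF cells (59.6% of all genes, 28.2% higher and 31.4% lower) and 9 higher and 7 lower in NPC cells (41.4%, 21.7% higher and 19.7% lower). On day 8 they were 7 higher and 16 lower in MEF cells (58.5% of all genes, 29.3% higher and 29.2% lower) and 10 higher and 13 lower in NPC cells (62.2%, 31.3% higher and 30.9% lower). The median member change ran from -1.63 on day 2 to -0.994 on day 4 and -1.25 on day 8 in MEF cells, and was -0.55, -0.329 and -0.961 on those days in NPC cells, while the all-gene medians stayed between -0.0613 and 0.0371.

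In both origins and on all 4 days, Itgb4 and Lama1 were called higher and Itga1, Itgb1, Itgb5, Lama2, Lama4 and Lamb2 were called lower. In NPC cells, some of these calls were lost with 1 library left out. They were those of Itgb1, Lama2, Lama4 and Lamb2 on day 2, Itgb5 and Lamb2 on day 4, and Itgb1 on day 12. Lama5, Lamb3, Itgb3 and Itgb7 were among the other members called higher in both origins on day 12, and Itga4 and Itga8 were called lower in both. Of these, Itgb7 was already higher in both on days 4 and 8 and Lamb3 on day 8. Itga4 was already lower in both on day 8 and Itga8 on days 2 and 8. The MEF day 4 call of Itgb7 was lost without MEF day 0 replicate 1, MEF day 0 replicate 2 or MEF day 4 replicate 3. Its log2 change was 0.72 without the last of these. The NPC day 2 call of Itga8 was lost without NPC day 2 replicate 1. In bulk RNA, fewer cells of a type and less RNA per cell cannot be told apart.

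Promoters of 4 genes among those called in both origins on day 12 are printed here to show the sequence beside the changes that follow: Lama5, which was higher, and Itgb1, Itgb5 and Lama2, which were lower. Each is the 250 bases before the annotated start, 5′ to 3′ on the strand of the gene, from RefSeq on GRCm38.p6, in which 24 of the 38 members had an entry. They lie at chr2:180225860-180226109 (minus strand, Lama5), chr8:128685404-128685653 (plus strand, Itgb1), chr16:33829415-33829664 (plus strand, Itgb5) and chr10:27616943-27617192 (minus strand, Lama2). Capitals mark the only match, on either strand, to the 4 motifs searched, which were GGGNGTG (bound by Klf factors), CACGTG (the E-box bound by Myc) and CATTGT and CTTTGT (bound by Sox factors).
Lama5: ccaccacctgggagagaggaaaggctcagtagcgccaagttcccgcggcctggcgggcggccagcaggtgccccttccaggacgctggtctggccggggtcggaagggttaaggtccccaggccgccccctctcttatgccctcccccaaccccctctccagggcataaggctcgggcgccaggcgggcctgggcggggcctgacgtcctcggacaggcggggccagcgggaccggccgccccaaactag
Itgb1: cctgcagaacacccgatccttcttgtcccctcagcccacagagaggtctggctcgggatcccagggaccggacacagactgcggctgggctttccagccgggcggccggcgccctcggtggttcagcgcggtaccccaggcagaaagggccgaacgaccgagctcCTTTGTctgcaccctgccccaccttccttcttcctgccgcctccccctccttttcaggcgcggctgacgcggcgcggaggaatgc
Itgb5: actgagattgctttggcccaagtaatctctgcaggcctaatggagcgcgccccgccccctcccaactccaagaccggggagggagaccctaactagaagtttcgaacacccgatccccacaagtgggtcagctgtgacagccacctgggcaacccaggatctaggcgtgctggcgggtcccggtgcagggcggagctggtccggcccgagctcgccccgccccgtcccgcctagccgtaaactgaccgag
Lama2: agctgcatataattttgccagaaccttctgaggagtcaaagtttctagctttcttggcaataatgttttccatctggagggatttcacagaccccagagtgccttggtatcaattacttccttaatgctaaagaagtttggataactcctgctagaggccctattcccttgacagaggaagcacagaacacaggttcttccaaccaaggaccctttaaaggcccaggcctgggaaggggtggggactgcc
The CTTTGT in the Itgb1 promoter was the only match, and 16.5% of 32851 mouse promoters of this table held that motif. CATTGT was in 10.7%, GGGNGTG in 26.1% and CACGTG in 6.02% of them. The G and C content was 72.4% for Lama5, 68.0% for Itgb1, 65.2% for Itgb5 and 47.2% for Lama2.

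Among the laminin alpha chains, which give a trimer its receptor preference, Lama1 and Lama5 ended high and Lama2 and Lama4 ended low in both origins. Lama1, the alpha chain of the first embryonic laminin, was at 107 and 74.2 CPM on day 2, 72.7 and 133 CPM on day 4, 156 and 254 CPM on day 8 and 254 and 263 CPM on day 12 in MEF cells, against 8.80 and 2.69 CPM on day 0. In NPC cells it was at 207 and 202, 295 and 198, 217 and 285, and 332 and 275 CPM on those days, against 46.0 and 70.2 CPM on day 0. Every induced library of either origin lay above both day 0 libraries of that origin, already on day 2. On day 12 the log2 difference from day 0 was 5.42 ± 0.61 (SE, adjusted p = 5.82e-05) in MEF cells and 2.41 ± 0.36 (SE, adjusted p = 0.000253) in NPC cells.

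Lama5, the most widely used alpha chain of adult and embryonic basement membranes, first went down and then up. It was at 24.1 and 8.57 CPM on day 2, 49.9 and 46.7 CPM on day 4, 158 and 197 CPM on day 8 and 403 and 524 CPM on day 12 in MEF cells, against 70.2 and 161 CPM on day 0. In NPC cells the values were 22.9 and 23.9, 23.3 and 87.8, 161 and 211, and 374 and 424 CPM, against 74.5 and 82.0 CPM on day 0. Day 2 libraries lay below and day 12 libraries above day 0 in both origins. The day 2 change was -2.97 ± 0.50 in MEF cells (SE, adjusted p = 0.000873) and -1.75 ± 0.46 in NPC cells (SE, adjusted p = 0.0128), the second not called without NPC day 2 replicate 1 (adjusted p = 0.0745), NPC day 2 replicate 2 (0.0644) or NPC day 0 replicate 2 (0.062). The day 12 change was 1.94 ± 0.47 in MEF cells (SE, adjusted p = 0.00587) and 2.39 ± 0.47 in NPC cells (SE, adjusted p = 0.00146).

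Lama2, the alpha chain of muscle and peripheral nerve basement membranes, was at 12.6 and 17.4, 2.31 and 1.82, 0.399 and 1.14, and 1.74 and 1.01 CPM on days 2, 4, 8 and 12 in MEF cells, against 56.8 and 108 CPM on day 0. NPC cells had 6.75 and 12.995, 5.29 and 7.20, 0.460 and 1.06, and 0.386 and 0.803 CPM, against 28.3 and 30.2 CPM on day 0. No induced library reached its day 0 pair, and the day 12 change was -5.97 ± 0.54 in MEF cells (SE, adjusted p = 1.69e-05) and -5.56 ± 0.59 in NPC cells (SE, adjusted p = 2.39e-05). Lama4, the alpha chain of vessel walls and mesenchyme, was at 5.27 and 4.22 CPM in day 12 MEF cells, against 270.0 and 59.9 CPM on day 0, and at 2.15 and 5.03 CPM in day 12 NPC cells, against 191 and 204 CPM on day 0. Its day 12 change was -5.18 ± 0.64 in MEF cells (SE, adjusted p = 0.000101) and -5.74 ± 0.72 in NPC cells (SE, adjusted p = 7.59e-05).

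Lama3, the alpha chain of epithelial anchoring laminins, moved differently by origin. It was at 9.55 and 12.9 CPM in day 12 MEF cells, against 0.661 and 2.403 CPM on day 0, a change of 2.81 ± 0.70 (SE, adjusted p = 0.00625). The NPC values were 8.50 and 7.92 CPM on day 12, against 16.6 and 19.3 CPM on day 0, a difference of -1.09 ± 0.49 that did not pass the test (SE, adjusted p = 0.0875). NPC cells started above MEF cells, and the day 12 libraries of both origins lay between those starting levels.

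Of the beta and gamma chains, Lamb3 was higher on day 12 in both origins, the widely used pair Lamb1 and Lamc1 was within 1 log2 unit of day 0 on day 12, and Lamb2 was low from day 2 on. Lamb3, a beta chain of epithelial laminin, was scarce throughout. It was at 3.93 and 3.50 CPM on day 8 and 4.06 and 4.02 CPM on day 12 in MEF cells, against 0.0509 and 0.629 CPM on day 0, and at 3.22 and 3.58, and 2.87 and 2.35 CPM in NPC cells, against 0.226 and 0.5001 CPM on day 0. Its day 12 change was 3.51 ± 0.84 in MEF cells (SE, adjusted p = 0.00519) (6.06 without MEF day 0 replicate 2, where day 0 rests on 1 count), and 2.86 ± 0.62 in NPC cells (SE, adjusted p = 0.00267).

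Lamb2, the beta chain of kidney, synapse and vessel laminins, was at 2.76 and 6.69, 2.18 and 1.64, 4.44 and 7.73, and 17.1 and 24.3 CPM on days 2, 4, 8 and 12 in MEF cells, against 225 and 186 CPM on day 0. NPC cells had 7.60 and 28.9, 24.7 and 11.03, 7.09 and 5.50, and 12.2 and 11.5 CPM, against 66.9 and 86.0 CPM on day 0. MEF cells reached their lowest level on day 4 and stood higher on day 12 than on day 8, and all induced libraries stayed below day 0. The day 12 change was -3.38 ± 0.44 in MEF cells (SE, adjusted p = 0.000131) and -2.66 ± 0.57 in NPC cells (SE, adjusted p = 0.00255).

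Lamb1, the most general beta chain, was at 326 and 335 CPM in day 12 MEF cells, against 487 and 728 CPM on day 0, a change of -0.94 ± 0.26 (SE, adjusted p = 0.0108) that was not called without MEF day 12 replicate 1 (adjusted p = 0.0577) or MEF day 0 replicate 2 (0.0588). The NPC values were 280.3 and 354 CPM on day 12, against 261 and 302 CPM on day 0, and the groups overlapped. Lamc1, the most general gamma chain, peaked on day 4, at 951 and 791 CPM in MEF cells, against 429 and 431 CPM on day 0, and at 1024 and 1043 CPM in NPC cells, against 552 and 646 CPM on day 0. The day 4 change of Lamc1 was 0.91 ± 0.21 in MEF cells (SE, adjusted p = 0.00376) and 0.81 ± 0.22 in NPC cells (SE, adjusted p = 0.0121), the second not called without NPC day 0 replicate 1 (adjusted p = 0.133), NPC day 0 replicate 2 (0.0524) or NPC day 4 replicate 1 (0.0571). Lamc3, the third gamma chain, was above 1 CPM only in the day 2 NPC libraries, at 1.32 and 4.48 CPM.

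**Figure D1:**
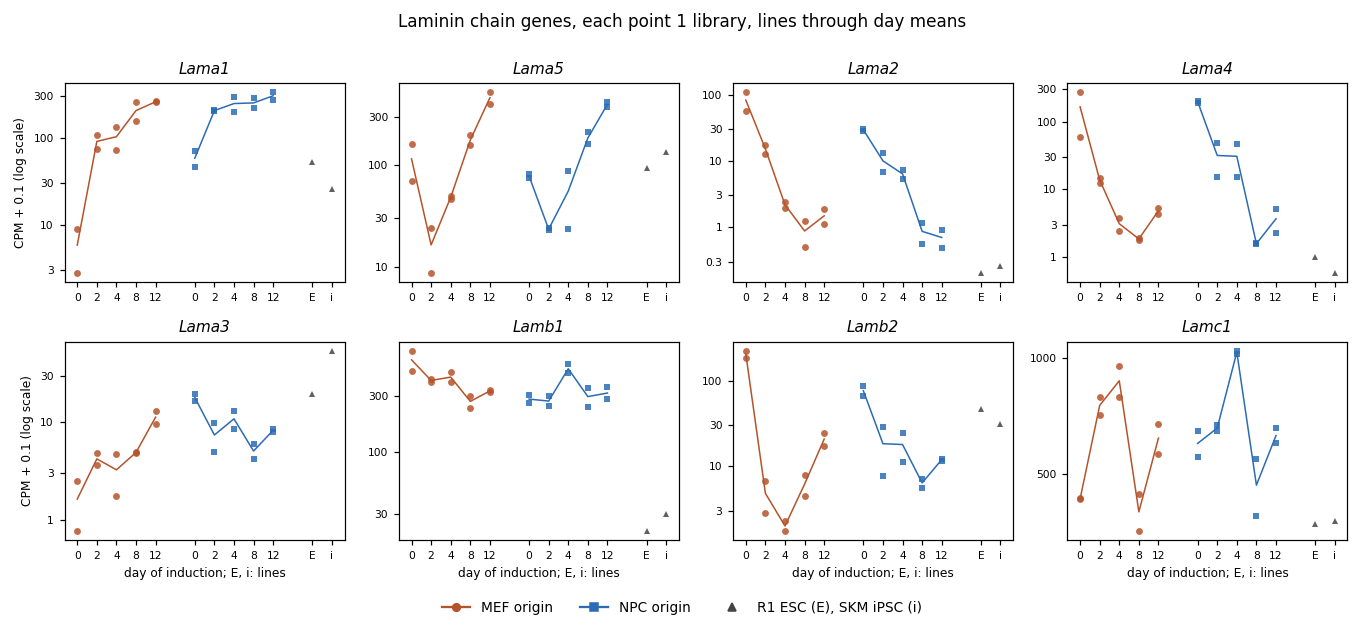
Levels of 8 laminin chain genes by day in MEF-derived and NPC-derived cells and in the lines (E, R1 ESC and i, SKM iPSC). Points are libraries, lines join the day means, days are equally spaced, and the y axis is CPM plus 0.1 on a log scale that differs by panel. Lama1 is above day 0 from day 2 on, and Lama2, Lama4 and Lamb2 are below it throughout.

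Among the laminin receptors, Itgb4 had the largest change of any member that rose on day 12 in either origin. It encodes integrin beta4, which pairs only with alpha6. It was at 166 and 129 CPM on day 2, 158 and 249 CPM on day 4, 397 and 386 CPM on day 8 and 465 and 380.5 CPM on day 12 in MEF cells, against 3.51 and 1.72 CPM on day 0. In NPC cells it was at 79.3 and 53.5, 68.4 and 134, 314 and 322, and 342 and 295 CPM, against 3.56 and 2.41 CPM on day 0. The lowest induced library of either origin was more than 10 times the highest day 0 library, and most of the gain was present by day 8. By day 12 the change was 7.26 ± 0.41 in MEF cells (SE, adjusted p = 1.93e-06) and 6.77 ± 0.41 in NPC cells (SE, adjusted p = 8.4e-07).

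Itga6, the alpha chain that beta4 needs and that beta1 also uses, moved in opposite directions by origin. In MEF cells it was at 275 and 269.9, 239 and 237, 178 and 201, and 247 and 343 CPM on days 2, 4, 8 and 12, against 69.5 and 153 CPM on day 0. NPC cells had 299 and 216, 305 and 250.4, 109 and 189, and 182 and 228 CPM, against 379 and 375 CPM on day 0. All induced MEF libraries were above their day 0 pair and all induced NPC libraries below theirs. The day 12 change was 1.34 ± 0.32 in MEF cells (SE, adjusted p = 0.00513), and 0.85 and still called without MEF day 0 replicate 1. It was -0.84 ± 0.27 in NPC cells (SE, adjusted p = 0.0249), and was not called without NPC day 0 replicate 1 (adjusted p = 0.0775), NPC day 0 replicate 2 (0.0816) or NPC day 12 replicate 1 (0.165).

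Itga7, the laminin receptor chain of muscle, peaked on day 8. It was at 3.91 and 7.51, 7.81 and 15.8, 78.1 and 83.2, and 84.6 and 35.2 CPM on days 2, 4, 8 and 12 in MEF cells, against 15.98 and 23.2 CPM on day 0. The NPC values were 10.4 and 17.4, 12.6 and 10.2, 36.1 and 59.5, and 38.9 and 35.6 CPM, against 22.02 and 22.1 CPM on day 0. Days 2 and 4 lay below day 0 and days 8 and 12 above it in both origins. The day 8 change was 1.91 ± 0.50 in MEF cells (SE, adjusted p = 0.00712) and 1.12 ± 0.36 in NPC cells (SE, adjusted p = 0.0195), the second not called without NPC day 8 replicate 2 (adjusted p = 0.119), NPC day 0 replicate 1 (0.102) or NPC day 0 replicate 2 (0.0965). Itga3, the chain of the epithelial laminin receptor alpha3 beta1, was called on no day in either origin, at 63.5 and 44.9 CPM on day 12 against 25.5 and 52.5 CPM on day 0 in MEF cells and at 23.7 and 18.0 CPM against 16.7 and 22.9 CPM in NPC cells.

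Itgb1, the beta chain shared by most matrix receptors, was lower on all 4 days in both origins. In MEF cells it was at 271 and 540.0, 208 and 151, 239 and 282, and 312 and 460.2 CPM on days 2, 4, 8 and 12, against 1581 and 5621 CPM on day 0. In NPC cells it was at 279.8 and 654, 274 and 175, 164 and 251, and 331 and 459.8 CPM, against 997 and 996 CPM on day 0. All induced libraries lay below day 0, and the 2 day 0 MEF libraries stood far apart. By day 12 the change was -3.29 ± 0.55 in MEF cells (SE, adjusted p = 0.000651), and -2.12 and still called without MEF day 0 replicate 2. It was -1.29 ± 0.38 in NPC cells (SE, adjusted p = 0.0144) and was not called there without NPC day 0 replicate 2 (adjusted p = 0.0522) or NPC day 12 replicate 1 (0.113).

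Of the receptors for fibronectin, vitronectin and other ligands with an RGD sequence, Itgb5 was the most steadily lower chain. Itgb5, which pairs with alphaV to bind vitronectin, was at 30.1 and 26.1, 50.8 and 46.8, 16.6 and 15.1, and 18.6 and 14.4 CPM on days 2, 4, 8 and 12 in MEF cells, against 296 and 257 CPM on day 0. NPC cells had 21.7 and 17.2, 42.2 and 22.1, 30.3 and 15.7, and 8.06 and 6.10 CPM, against 111 and 95.3 CPM on day 0. All induced libraries lay below both day 0 libraries of their origin. The NPC day 4 call was lost without NPC day 0 replicate 1 or NPC day 4 replicate 2. The day 12 change was -4.14 ± 0.31 in MEF cells (SE, adjusted p = 7.09e-06) and -3.83 ± 0.47 in NPC cells (SE, adjusted p = 6.85e-05).

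Itga5, the alpha chain of the fibronectin receptor, was at 165 and 154, 176 and 248, 113 and 102, and 85.9 and 78.7 CPM on days 2, 4, 8 and 12 in MEF cells, against 469.8 and 1306 CPM on day 0. The NPC values were 60.7 and 49.0, 88.9 and 74.7, 146 and 149, and 84.1 and 65.7 CPM, against 77.9 and 80.8 CPM on day 0. MEF cells lay below day 0 on each day, whereas NPC cells lay above it on day 8 and overlapped it on day 12. By day 12 the change was -3.50 ± 0.41 in MEF cells (SE, adjusted p = 7.31e-05) and -0.05 ± 0.21 in NPC cells (SE, adjusted p = 0.864), and the day 8 change in NPC cells was 0.91 ± 0.21 (SE, adjusted p = 0.00342).

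Itgav, the alpha chain of several vitronectin receptors, was at 93.0 and 229 CPM in day 12 MEF cells, against 221 and 842 CPM on day 0, and the groups overlapped. Its change of -1.79 ± 0.57 (SE, adjusted p = 0.0219) was -0.54 and not called without MEF day 0 replicate 2 (adjusted p = 0.364), and not called without MEF day 12 replicate 1 (0.154). In NPC cells Itgav was at 109.9 and 159 CPM on day 12, against 160.3 and 151 CPM on day 0, a difference of -0.17 ± 0.41 (SE, adjusted p = 0.758). It was at 28.0 and 77.1 CPM on day 8, a change of -1.57 ± 0.42 (SE, adjusted p = 0.00692) that was -1.03 without NPC day 8 replicate 1 and -2.40 without NPC day 8 replicate 2.

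Itgb3, another partner of alphaV, was at 15.2 and 11.1, 41.9 and 28.5, 27.7 and 32.2, and 29.8 and 47.0 CPM on days 2, 4, 8 and 12 in NPC cells, against 7.49 and 4.23 CPM on day 0, with every induced library above day 0 and a day 12 change of 2.75 ± 0.39 (SE, adjusted p = 0.000173). In MEF cells it was at 66.5 and 45.3 CPM on day 12, against 25.5 and 35.5 CPM on day 0. That change of 0.81 ± 0.30 (SE, adjusted p = 0.0413) was not called without MEF day 12 replicate 1 (adjusted p = 0.21) or MEF day 0 replicate 1 (0.201).

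Itgb8, a beta chain of neural progenitors and glia that presents latent TGF-beta, was at 10.0 and 45.2, 4.80 and 18.0, 0.722 and 0.994, and 4.20 and 4.39 CPM on days 2, 4, 8 and 12 in NPC cells, against 130.1 and 113 CPM on day 0. Every induced NPC library lay below day 0, with a day 12 change of -4.79 ± 0.76 (SE, adjusted p = 0.000538). In MEF cells Itgb8 was at 1.79 and 3.47 CPM on day 12, against 10.5 and 4.63 CPM on day 0, a difference of -1.59 ± 0.82 that did not pass the test (SE, adjusted p = 0.131). Itgb6, a beta chain of epithelia, stayed at or below 3.42 CPM in all libraries, and Itga2b, the alpha chain of the platelet fibrinogen receptor, at or below 8.14 CPM.

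Of the 4 collagen receptor chains, Itga1 was lower on day 12 in both origins, Itga11 in MEF cells and Itga2 in NPC cells. Itga2 was not tested among MEF libraries, where it was at 0.105 and 0.101 CPM on day 12, against 0.967 and 3.03 CPM on day 0. Itga1, a receptor for basement membrane collagen, was at 0.791 and 0.352 CPM in day 12 MEF cells, against 21.7 and 57.3 CPM on day 0, and at 0.110 and 0.0535 CPM in day 12 NPC cells, against 35.6 and 33.5 CPM on day 0. Its day 12 change was -6.17 ± 0.80 in MEF cells (SE, adjusted p = 0.000134) and -8.58 ± 1.18 in NPC cells (SE, adjusted p = 0.000144). The day 12 NPC libraries held only 2 and 1 counts of Itga1, so the size of the NPC fall is imprecise. That fall is not read here as larger than the MEF one. Itga11, a fibrillar collagen receptor of fibroblasts, was at 0.633 and 0.453 CPM in day 12 MEF cells, against 89.1 and 117 CPM on day 0, a change of -7.62 ± 0.57 (SE, adjusted p = 6.67e-06). Fibroblast markers moved with it, at a summed 186 and 37.7 CPM in day 12 MEF cells against 26910.0 and 14771 CPM on day 0, with 5 of 5 called lower. Their part in the result was not tested.

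Itga2, another collagen receptor chain, was at 0 and 0.482 CPM in day 12 NPC cells, against 7.54 and 7.55 CPM on day 0, a change of -4.88 ± 1.15 (SE, adjusted p = 0.00448). The call held with each library left out, but without NPC day 12 replicate 2 the day 12 side had no count, so no fold is given for that case. Itga8, which binds nephronectin, had no count in day 8 NPC cells, against 11.9 and 11.5 CPM on day 0. With a floor of 3 counts over the day 8 pair it was at least 118-fold lower there. Itga10, a cartilage collagen receptor chain, was called in no comparison.

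Itga4 and Itga9, the alpha chains for fibronectin variants, tenascin and VCAM1, had their highest mean in MEF cells on day 2. Itga9 was at 74.8 and 100.2, 90.0 and 59.3, 26.6 and 23.2, and 21.7 and 8.597 CPM on days 2, 4, 8 and 12 in MEF cells, against 22.7 and 14.8 CPM on day 0. In NPC cells it was at 53.9 and 89.4, 78.2 and 45.0, 28.6 and 31.5, and 11.4 and 10.3 CPM, against 16.3 and 15.0 CPM on day 0. Days 2 and 4 lay above day 0 in both origins, with day 2 changes of 2.07 ± 0.48 in MEF cells (SE, adjusted p = 0.00556) and 2.19 ± 0.41 in NPC cells (SE, adjusted p = 0.00215). Itga4 was at 0.633 and 0.654 CPM in day 12 MEF cells, against 7.58 and 14.5 CPM on day 0, and at 0.0552 and 0.214 CPM in day 12 NPC cells, against 28.0 and 24.8 CPM on day 0. Its day 12 change was -4.15 ± 0.62 in MEF cells (SE, adjusted p = 0.000338) and -7.50 ± 0.70 in NPC cells (SE, adjusted p = 1.06e-05).

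**Figure D2:**
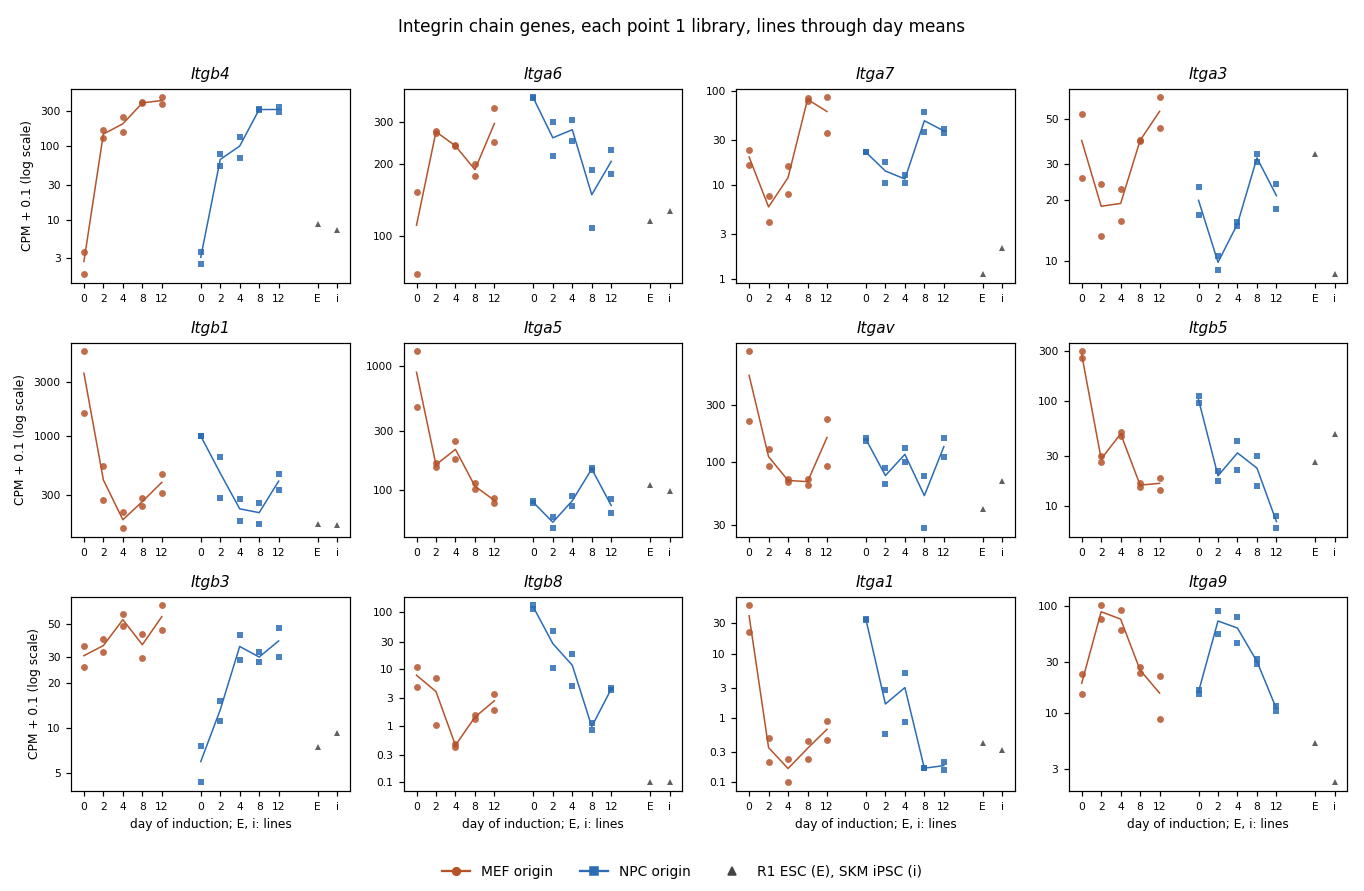
Levels of 12 integrin chain genes by day in MEF-derived and NPC-derived cells and in the lines (E, R1 ESC and i, SKM iPSC). Points are libraries, lines join the day means, days are equally spaced, and the y axis is CPM plus 0.1 on a log scale that differs by panel. Itgb4 is above day 0 from day 2 on in both origins, Itga9 on days 2 and 4, and Itga6 is above day 0 in MEF cells and below it in NPC cells.

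Of the leukocyte integrin chains, Itgam and Itgb2, which pair as the receptor of macrophages and neutrophils, were found mainly in day 0 MEFs. Itgam was at 0.211 and 0.754 CPM in day 12 MEF cells, against 9.21 and 21.4 CPM on day 0, and Itgb2 at 0.264 and 0.302 CPM, against 6.46 and 9.61 CPM. The day 12 changes were -5.02 ± 0.74 for Itgam (SE, adjusted p = 0.000289) and -4.86 ± 0.63 for Itgb2 (SE, adjusted p = 0.000131). The sum of the 11 macrophage markers moved with them, at 34.5 and 81.7 CPM in day 12 MEF cells against 247 and 444 CPM on day 0. Of the 10 tested, 9 were called lower. Among these markers, Adgre1 was at 0 and 0.0503 CPM in day 12 MEF cells, against 8.45 and 16.5 CPM on day 0. Cd68 went the other way, at 21.4 and 64.2 CPM on day 12 against 17.6 and 19.1 CPM on day 0, and made up most of the day 12 sums. The part of such cells in the result was not tested.

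The day 4 NPC library named for feeders held 72 counts of Itgam, 47 of Itgb2, 91 of Itga8, 89 of Itga11 and 103 of Itga1, and the library named for no feeder held 1, 3, 1, 4 and 16. The summed macrophage markers were at 125 CPM in the feeder library and 12.3 CPM in the other, and the fibroblast markers at 1606 and 70.6 CPM. The part of other cells in these levels was not tested. Itgam, with no count in day 0 NPCs, was called higher on day 4, at least 26.3-fold with a floor of 3 counts over the day 0 pair. The call was lost without the feeder library (adjusted p = 0.379), NPC day 0 replicate 1 (0.0901) or NPC day 0 replicate 2 (0.0919).

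Itgb7, a lymphocyte integrin beta chain, was higher in both origins, at 15.9 and 8.65 CPM in day 12 MEF cells, against 3.31 and 3.78 CPM on day 0, and at 10.3 and 7.28 CPM in day 12 NPC cells, against 0.361 and 0.227 CPM on day 0. The changes were 1.72 ± 0.43 in MEF cells (SE, adjusted p = 0.00679; not called without MEF day 12 replicate 1, adjusted p = 0.0547) and 4.90 ± 0.52 in NPC cells (SE, adjusted p = 2.49e-05). Itgal, the alpha chain of the lymphocyte receptor LFA-1, peaked on day 8, at 10.1 and 6.72 CPM in MEF cells and 6.70 and 7.62 CPM in NPC cells. Its partner Itgb2 was at 0.171 and 0.403 CPM, and at 0 and 0.132 CPM, in those libraries. Itgae, a partner of beta7, was at 2.74 and 1.56 CPM in day 12 MEF cells, against 0.254 and 0.172 CPM on day 0, a change of 3.22 ± 0.65 (SE, adjusted p = 0.00204).

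**Figure D3:**
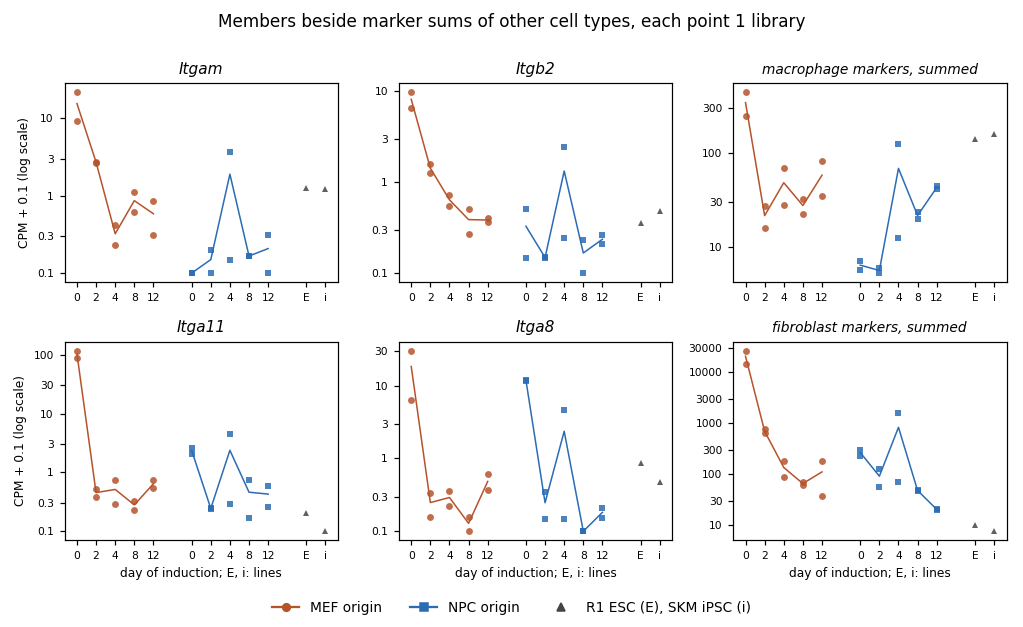
Levels of Itgam, Itgb2, Itga11 and Itga8 and the summed macrophage and fibroblast markers by day in MEF-derived and NPC-derived cells and in the lines (E, R1 ESC and i, SKM iPSC). Points are libraries, lines join the day means, days are equally spaced, and the y axis is CPM plus 0.1 on a log scale that differs by panel. The feeder library of day 4 NPC cells stands above its partner in all 6 panels.

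The remaining comparisons ask how the origins differ before and after induction. On day 0, 13 members were higher and 4 lower in MEFs than in NPCs, where 34.2% of all genes were called (16.5% higher, 17.7% lower), and the median member difference was 0.657, against -0.00576 over all genes. MEFs had more Itga5, with a log2 difference of 3.51 ± 0.36 (SE, adjusted p = 5.25e-06), and more Itga11, with 5.53 ± 0.96 (SE, adjusted p = 0.00039). NPCs had more Itgb8 (-3.97 ± 0.84, SE, adjusted p = 0.002), Lama3 (-3.53 ± 0.64, SE, adjusted p = 0.000555), Lama1 (-3.31 ± 0.50, SE, adjusted p = 0.000127) and Itga6 (-1.73 ± 0.33, SE, adjusted p = 0.000761). The higher Itgb1 of MEFs, 1.88 ± 0.51 (SE, adjusted p = 0.00911), was 0.70 and not called without MEF day 0 replicate 2 (adjusted p = 0.31), and not called without NPC day 0 replicate 1 (0.0652) or NPC day 0 replicate 2 (0.066).

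On day 12, no member was called between MEF and NPC cells by edgeR, nor any of the 16188 genes tested, and DESeq2 called no member and 70 genes. At an unadjusted p under 0.05 there were 5 members, which does not show that the others act alike. Itgb5 had the lowest p of the members, at 18.6 and 14.4 CPM in MEF cells against 8.06 and 6.10 CPM in NPC cells, a log2 difference of 1.23 ± 0.37 (SE, adjusted p = 0.518). Those of Itgb4, Lama1, Itgb1 and Lamc1 were 0.43 ± 0.34, -0.21 ± 0.45, -0.02 ± 0.49 and -0.01 ± 0.20 (SE).

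The log2 response to induction (day 12 over day 0) differed between origins for 10 members, of which 4 responses were higher and 6 lower in MEF than in NPC cells, where 14.9% of all genes were called (8.63% higher, 6.31% lower). Lama3 (3.99 ± 0.85, SE, adjusted p = 0.00444), Lama1 (3.09 ± 0.66, SE, adjusted p = 0.0046) and Itga6 (2.27 ± 0.46, SE, adjusted p = 0.00317) had the higher response in MEF cells. Itga5 (-3.36 ± 0.47, SE, adjusted p = 0.000231) and Itgb7 (-3.08 ± 0.63, SE, adjusted p = 0.00371) had the lower one. These 5 calls held with each library left out, while the 10 calls were 6 without MEF day 0 replicate 2, MEF day 12 replicate 2 or NPC day 0 replicate 2. For day 2 the response differed for 4 members, 1 higher and 3 lower, where 8.31% of all genes were called (4.2% higher, 4.11% lower). Those 4 calls were 7 without MEF day 0 replicate 1, 1 without NPC day 0 replicate 1, and 2 without MEF day 2 replicate 1, NPC day 0 replicate 2 or NPC day 2 replicate 2.

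**Figure D4:**
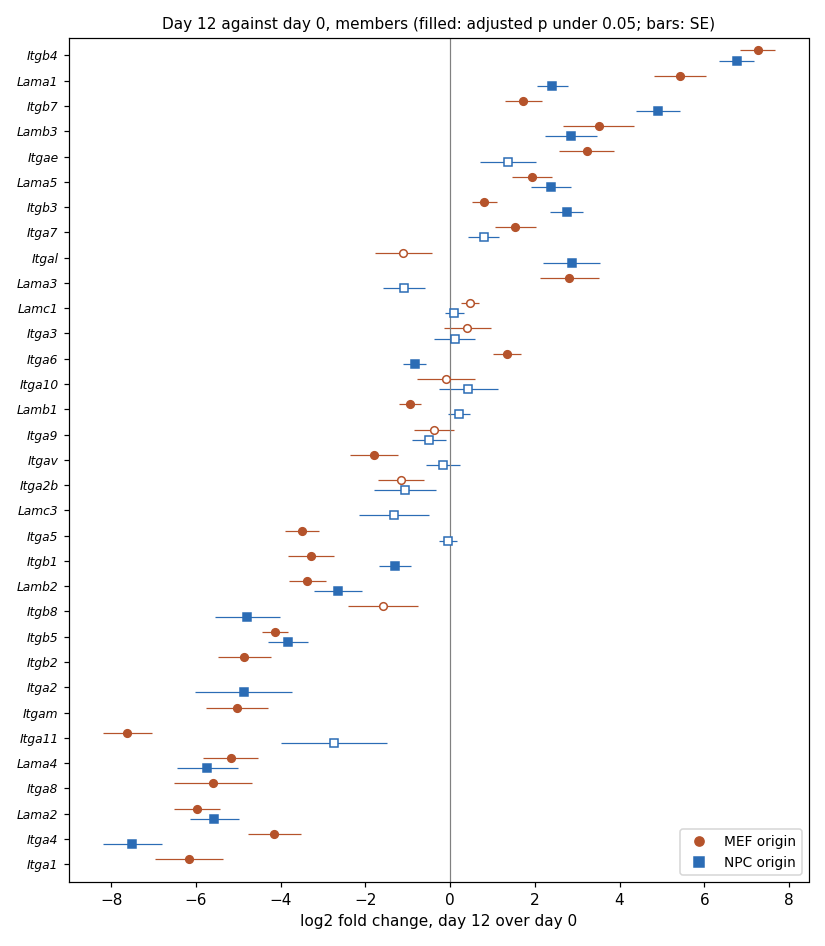
Log2 change of the members reported here with more than 3 summed counts in both groups, day 12 against day 0, in MEF-derived and NPC-derived cells. Points are edgeR estimates, bars are standard errors, and filled points have an adjusted p under 0.05. Itgb4 lies highest among the called members of both origins, and Itga6 is filled on opposite sides of 0.

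Between days 8 and 12, the median member change was 0.692 in MEF cells and 0.352 in NPC cells, against 0.0581 and 0 over all genes. By edgeR, 13 members in MEF cells and 10 in NPC cells had an unadjusted p under 0.05. Few members were called after adjustment. In MEF cells, 2 were higher and 1 lower on day 12 than on day 8 (14% of all genes called, 8.5% higher and 5.52% lower), namely Lamb2 (1.83 ± 0.42, SE, adjusted p = 0.0238), Itga2b (2.17 ± 0.60, SE, adjusted p = 0.0394) and Itgal (-2.47 ± 0.69, SE, adjusted p = 0.0394). Each of those 3 calls was lost without MEF day 8 replicate 1, MEF day 8 replicate 2 or MEF day 12 replicate 2, which left no member called, and the call of Itgal also without MEF day 12 replicate 1 (adjusted p = 0.058). In NPC cells, 3 were higher and 4 lower (31% of all genes called, 14.4% higher and 16.6% lower), among them Itga5, at -0.96 ± 0.21 (SE, adjusted p = 0.00959). The 7 NPC calls were 0 without NPC day 12 replicate 2 and 2 without NPC day 8 replicate 1 or NPC day 12 replicate 1. Itga5 lost its call without NPC day 12 replicate 2 (adjusted p = 0.109).

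Against the pluripotent lines, day 12 cells of both origins had more of most called members. In MEF cells 15 were higher and 2 lower (42.4% of all genes called, 23.1% higher and 19.3% lower), with a median of 1.3, against 0.0104 over all genes. In NPC cells 15 were higher and 5 lower (41% of all genes called, 21.1% higher and 19.9% lower), with a median of 0.974, against -0.015 over all genes. The 17 MEF calls were 9 without SKM iPSC, and the 20 NPC calls were 11 without R1 ESC, 12 without SKM iPSC and 12 without NPC day 12 replicate 2. The lines are 1 library each, so their spread is that between 2 different lines.

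Itgb4 was at 465 and 380.5 CPM in day 12 MEF cells and 342 and 295 CPM in day 12 NPC cells, against 8.59 CPM in R1 ESC and 7.15 CPM in SKM iPSC, differences of 5.78 ± 0.38 (SE, adjusted p = 8.83e-06) and 5.34 ± 0.38 (SE, adjusted p = 3.7e-06). Itga7 was at 84.6 and 35.2 CPM in day 12 MEF cells and 38.9 and 35.6 CPM in day 12 NPC cells, against 1.02 and 2.04 CPM in the lines, differences of 5.32 ± 0.60 (SE, adjusted p = 8.92e-05) and 4.61 ± 0.43 (SE, adjusted p = 1.83e-05). Lamb1 differed by 3.73 ± 0.29 (SE, adjusted p = 1.3e-05) and 3.64 ± 0.29 (SE, adjusted p = 5.83e-06), with 21.1 and 29.9 CPM in the lines. For Itgb4 and Itga7 every day 12 library lay more than 10 times above both lines, and for Lamb1, at 326 and 335 CPM in MEF cells and 280.3 and 354 CPM in NPC cells, far above them without overlap.

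Lama1, at 53.2 and 25.4 CPM in the lines, was higher in day 12 cells by 2.75 ± 0.54 (MEF, SE, adjusted p = 0.00237) and 2.95 ± 0.37 (NPC, SE, adjusted p = 0.000119). Itgb3, at 7.37 and 9.15 CPM in the lines, was higher by 2.79 ± 0.32 (MEF, SE, adjusted p = 9.42e-05) and 2.22 ± 0.38 (NPC, SE, adjusted p = 0.000955). Itgb8 had no count in either line and was at least 33.6-fold higher in day 12 MEF cells and at least 54.8-fold higher in day 12 NPC cells, with a floor of 3 counts over the lines. Itgb5 was lower in day 12 cells than in the lines (26.5 and 49.0 CPM), by -1.16 ± 0.28 in MEF cells (SE, adjusted p = 0.00777; -0.68 and not called without SKM iPSC, adjusted p = 0.0761, and not called without MEF day 12 replicate 2, adjusted p = 0.0677) and -2.41 ± 0.45 in NPC cells (SE, adjusted p = 0.00156).

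**Figure D5:**
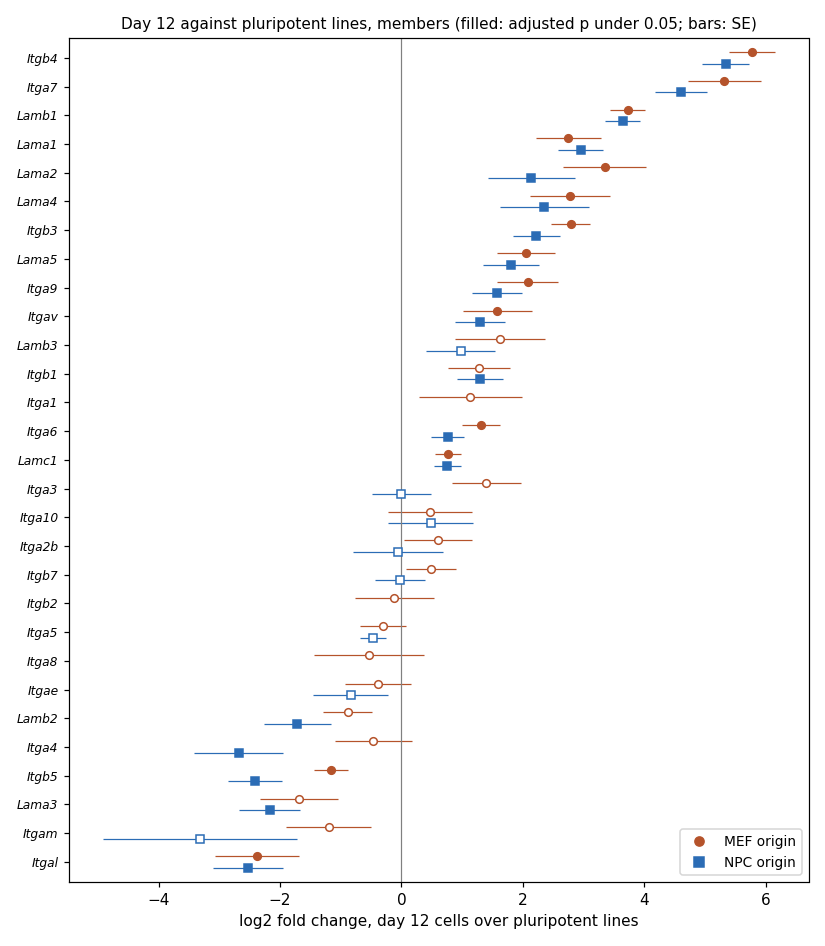
Log2 difference of the members reported here with more than 3 summed counts in both groups, day 12 cells against the pluripotent lines, for MEF-derived and NPC-derived cells. Points are edgeR estimates, bars are standard errors, and filled points have an adjusted p under 0.05. Itgb4, Itga7 and Lamb1 lie above 3 in both origins.

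Genes that work with these chains were counted in 4 lists, on day 12 against day 0. Over all genes tested, 26.9% were higher and 24.9% lower in MEF cells, with a median change of 0.104. In NPC cells 24.7% were higher and 23.9% lower, with a median of 0.133. Of the hemidesmosome partners, which anchor alpha6 beta4, 4 of 6 tested were higher and 1 lower in MEF cells, and 5 of 6 higher and 1 lower in NPC cells, with median changes of 1.97 and 3.33. The lower one, named after its values were seen, was Cd151, a tetraspanin partner of laminin-binding integrins, with -0.90 ± 0.33 in MEF cells (SE, adjusted p = 0.0384) and -0.88 ± 0.31 in NPC cells (SE, adjusted p = 0.0334). Dst, the plakin that ties beta4 to keratin, changed by 1.45 ± 0.25 in MEF cells (SE, adjusted p = 0.000845) and 1.89 ± 0.32 in NPC cells (SE, adjusted p = 0.000533), and Col17a1, the transmembrane collagen of hemidesmosomes, by 2.49 ± 0.66 (SE, adjusted p = 0.00897) and 4.48 ± 0.77 (SE, adjusted p = 0.000645). The 5 basal epidermal markers, of which Krt5 and Krt14 are also in that list, summed to 465 and 406 CPM in day 12 MEF cells against 1.17 and 1.09 CPM on day 0, and to 412 and 273 CPM in day 12 NPC cells against 0 and 0.227 CPM on day 0. The 4 of them tested were called higher in both origins. Of these, Krt5 was at only 1.00 and 2.31 CPM in day 12 MEF cells and 1.60 and 1.12 CPM in day 12 NPC cells. Trp63, the defining transcription factor of basal epidermis, was at 0.105 and 0.352 CPM in day 12 MEF cells and at 0 and 0.107 CPM in day 12 NPC cells. The part of such cells in the rise of Itgb4 was not tested.

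Of the adhesion adaptors, which connect integrins to actin, 1 of 20 tested was higher and 14 lower in MEF cells, with a median of -2.25. In NPC cells 3 of 21 were higher and 11 lower, with a median of -0.982. The shares over all genes were 26.9% higher and 24.9% lower in MEF cells, and 24.7% and 23.9% in NPC cells. Fermt3, the kindlin of blood cells, was the one that rose in MEF cells, by 4.38 ± 0.39 (SE, adjusted p = 1.42e-05), and it rose by 6.87 ± 0.46 in NPC cells (SE, adjusted p = 1.48e-06). In NPC cells Tns1 and Lims2 were the other two that rose, named here after their values were seen. Tgfb1i1, a focal adhesion adaptor, changed by -6.04 ± 0.40 (SE, adjusted p = 3.74e-06) and -4.66 ± 0.45 (SE, adjusted p = 1.37e-05).

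Of the basement membrane partners, 0 of 12 tested were higher and 8 lower in MEF cells, with a median of -2.05. In NPC cells 3 of 14 were higher and 8 lower, with a median of -1.9. The same shares over all genes, 24.9% lower in MEF cells and 23.9% lower in NPC cells, apply to both lists of this paragraph. Those higher in NPC cells were the perlecan gene Hspg2 and the collagen IV genes Col4a1 and Col4a2, named here after their values were seen. Nid2, which bridges laminin and collagen IV, changed by -3.89 ± 0.43 (SE, adjusted p = 5.29e-05) in MEF cells and -3.96 ± 0.51 (SE, adjusted p = 9.02e-05) in NPC cells. The interstitial ligands, such as fibronectin and collagen I, were lower for 8 of 8 tested in MEF cells and 7 of 9 in NPC cells, none was higher, and the medians were -6.43 and -4.27.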

How the data were processed

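RNA-seq read counts per gene, as deposited by the authors, were used for 22 libraries (10 MEF, 10 NPC and 2 pluripotent lines). Per the submitters' processing notes, reads were aligned with STAR 2.5.1b to mm9, and the counting tool and its strand setting are not given in the sources used here, so reads of overlapping or antisense genes cannot be told apart. Groups follow the sample titles, and the SKM iPSC column was matched by elimination. The 11 ChIP-seq samples are not used here.

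After repeated lines were kept once, the tables held 37620 genes. Counts were scaled by TMM and tested with edgeR 4.0.16 (quasi-likelihood, R 4.3.3) on genes with at least 1 CPM in at least 2 libraries, in 1 fit of 15246 genes for MEF libraries with the lines, 1 of 15565 genes for NPC libraries with the lines, and a joint fit of 16188 genes for comparisons between origins, 16 comparisons in all. Benjamini-Hochberg adjustment ran over all genes of a fit, and the standard error was taken from the log2 change and its F statistic. The procedure was tested on simulated data, where DESeq2 was allowed more false calls than edgeR or quantile normalization. Library totals, given with the results, limit the precision of genes with few counts, and a fold against a group with no count is a bound from a floor of 3 counts over that group, which covers counting error only. Alternatives were RLE scaling, quantile normalization with limma 3.58.1, no filter, DESeq2 1.42.0, only the groups compared, a replicate block and leaving out each library. Members, lists and tests were chosen with earlier results of these data known. Any member could be named, and partner genes were named for the largest changes in their list. Values of 1 member are not reported here, and it stays in the counts.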

Additional observations from a re-analysis of the deposited data

Results flagged for a closer look

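The response to induction, taken as the log2 change from day 0 in MEF cells minus that in NPC cells, differed between the origins for 14 pairs of a member and a day by the interaction test of edgeR over all genes. Of 35 members tested, 4 were called for day 2, where 8.31% of all genes were called. For day 12, 10 were called, where 14.9% of all genes were called. All comparisons use 2 libraries a group, and the day 2 and day 12 responses share the day 0 libraries.

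On day 2 the difference was 1.81 for Itga6, -1.98 for Itga5, -3.39 for Lamb2 and -5.22 for Itgal. Of these 4, Itgal stayed called with each of the 8 libraries left out. On day 12 the difference was 3.99 for Lama3, 3.44 for Itga4, 3.09 for Lama1 and 2.27 for Itga6. It was -1.85 for Itgb3, -3.08 for Itgb7, -3.36 for Itga5, -3.89 for Itgal and -4.80 for Itga11. The value of Itgam on day 12, -9.10, depends on the prior count of the fit, since Itgam had no count in day 0 NPCs, and it was -4.99 and not called without NPC day 12 replicate 2. Calls held with every library left out for Itga5, Itga6, Itgb7, Lama1 and Lama3 on day 12. The day 2 value of Itga5 was -1.07 and not called (adjusted p = 0.0597) without MEF day 0 replicate 2, and that of Lamb2 was -2.17 and not called (adjusted p = 0.0734) without NPC day 2 replicate 2.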

How the results depend on the processing

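Of 243 pairs of a member and a comparison that were called, 155 stayed called under every alternative and 158 with every library left out, and none changed sign. RLE scaling, no filter and DESeq2 lost 1 call each, the replicate block 7, quantile normalization 19 and using only the groups compared 22. With all libraries kept, the count of members called moved by over 1.5 times in 2 comparisons. For MEF day 12 against day 8, where 3 were called, it was 8 without the filter, 5 with quantile normalization, 6 with DESeq2 and 7 with only the groups compared. Quantile normalization also moved the split of all genes there to 1225 higher and 1236 lower, against 1296 and 842. For the day 2 response between origins, where 4 were called, it was 10 without the filter, 8 with DESeq2 and 2 with only the groups compared. Between MEF and NPC cells on day 12 no member was called under any of these settings, while DESeq2 called 70 genes, no filter 232 and quantile normalization 3. Quantile normalization moved the median of all genes by over 0.1 on the log2 scale in MEF cells, to 0.0977 on day 2, 0.0644 on day 4 and 0.13 on day 8, to -0.066 for day 12 against day 8 and -0.124 against the lines, and to -0.0615 for the day 12 response.

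Leaving out 1 library moved the count by over 1.5 times in 7 comparisons, named with those libraries in the results. With 1 library left out, the members called in MEF cells numbered 17 to 21 on day 2, 17 to 18 on day 4, 18 to 22 on day 8, 20 to 25 on day 12, 0 to 3 for day 12 against day 8 and 9 to 16 against the lines. In NPC cells they numbered 6 to 14 on day 2, 12 to 17 on day 4, 21 to 24 on day 8, 16 to 19 on day 12, 0 to 7 for day 12 against day 8 and 11 to 16 against the lines. Between origins they numbered 12 to 18 on day 0, 0 on day 12, 1 to 7 for the day 2 response and 6 to 14 for the day 12 response.

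The difference between the 2 libraries of a group, lower number minus higher, was correlated over genes between groups. The correlation r was above 0.1 in 21 of 45 pairs of groups. It ran from -0.0907 between NPC days 0 and 8 to 0.701 between day 2 of MEF and NPC cells. It was 0.55 between the day 12 groups of both origins and 0.521 between NPC days 8 and 12. The MEF day 4 libraries are replicates 1 and 3, so pairs with that group did not compare the same numbers. Not every pair was above 0.1 and the labels do not say what a number marks. The numbers were therefore not taken to pair the libraries. The main tests thus treated libraries as independent, although some groups deviated together, among them compared groups such as MEF days 0 and 2 (r = 0.366). With a replicate block, the members called in MEF cells were 25 on day 2, 23 on day 8, 24 on day 12 and 2 for day 12 against day 8. No count is given for MEF day 4. MEF day 4 replicate 3 was the only library of its number, so the block left 1 day 4 library to that comparison. In NPC cells the members called were 21 on day 2, 16 on day 4, 25 on day 8, 22 on day 12 and 8 for day 12 against day 8. Between origins they were 19 on day 0, 0 on day 12, 6 for the day 2 response and 10 for the day 12 response. The block could not be fitted for the comparisons with the lines. The alternatives planned for peaks were not run, because peaks were not used. Members under 1 CPM rest on few counts, and differences there were often not detectable at this depth.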
